A study of Homo sapiens with 12 samples.

Results

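The genes described here encode 4 families of short-range and secreted guidance cues together with their receptors: the ephrins and Eph receptors, the semaphorins and plexins, the netrins and the DCC, neogenin and UNC5 receptors, and the slits and Robo receptors. Members were taken by gene symbol, for families chosen with earlier results of these data known, and 68 of the 51838 rows of the deposited count table qualified. They comprise 8 ephrins, 14 Eph receptors, 20 semaphorins, 9 plexins, 4 netrins, 6 netrin receptors, 3 slits and 4 Robo receptors. Of these, 61 had enough reads to be tested. The other 7 (DCC, EPHA7, EPHA8, ROBO2, SLIT3, UNC5A and UNC5D) stayed below the count filter.

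The libraries came from 2 human breast cancer lines that the labels class as basal-like, HCC70 and MDA-MB-231. HCC70 was grown in RPMI-based medium and MDA-MB-231 in DMEM-based medium, both with serum, so a difference between the lines cannot be told apart from one between media. Each line received either 100 nM dexamethasone (DEX), a synthetic agonist of the glucocorticoid receptor, or the same volume of its ethanol vehicle, for 4 h. Each of the 4 groups had 3 libraries. Whether the 3 were grown separately is not stated, and the p-values then cover only the spread among these libraries, which may be technical.

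Library totals lay between 106345287 and 123218973 counts. FKBP5, a textbook glucocorticoid target, went from a mean of 35.2 to 218 CPM (counts scaled by TMM to 1e+06 per library) in HCC70 and from 56.2 to 1119 CPM in MDA-MB-231 (adjusted p = 9.35e-11 and 2.05e-13). NR3C1, which encodes the receptor, stood at 56.6 CPM in HCC70 vehicle and 125 CPM in MDA-MB-231 vehicle, where it fell to 88.9 CPM with DEX (adjusted p = 0.000112). In vehicle the 6 basal epithelial markers summed to 3794 to 4119 CPM in HCC70 and to 343 to 371 CPM in MDA-MB-231, where the basal keratins KRT5 and KRT14 did not exceed 1.31 and 0.5 CPM. The mesenchymal markers showed the reverse, with 380 to 418 CPM in HCC70 and 2695 to 3000 CPM in MDA-MB-231. Among 4 endothelial markers in the table only KDR reached 1 CPM; their summed level was 0.324 to 0.596 CPM in HCC70 vehicle, 2.78 to 3.37 CPM in MDA-MB-231 vehicle and 20.9 to 23.8 CPM in MDA-MB-231 with DEX. Of 3 leukocyte markers, 1 reached 1 CPM in each group. The 3 summed to 22 to 24.4 CPM in HCC70 vehicle and to 64.3 to 66.9 CPM in MDA-MB-231 vehicle. PTPRC, another of the 3, did not exceed 0.272 CPM in any library. The part of these markers in the results below was not tested.

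Guidance molecules steer growing axons and vessels by telling a cell where to extend and where to withdraw, and epithelia use the same molecules to keep cell layers apart and to control adhesion. Ephrins stay on the membrane and signal on contact: the A class is held by a lipid anchor, the B class crosses the membrane, and the Eph tyrosine kinases that bind them form the largest receptor tyrosine kinase family. Semaphorins signal through plexins, secreted class 3 members mostly with a neuropilin co-receptor, while netrins act through DCC-type and UNC5-type receptors and slits through Robo receptors.

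In HCC70, 4 of the 61 tested guidance genes rose with DEX and 1 fell: UNC5B, EFNA3, EFNB2 and EPHA2 rose and EPHA4 fell. Of all 28141 tested genes, 2.55% rose and 1.4% fell in this line. In MDA-MB-231, 5 members rose and 14 fell, against a background of 6.65% higher and 7.96% lower among all tested genes. The members that fell there were 7 semaphorins, 5 Eph receptors, 1 ephrin and 1 plexin, and the largest called drop was that of EPHB3, from 6.7 to 1.93 CPM. The median log2 fold change over the 61 members was 0.09 in HCC70 and -0.38 in MDA-MB-231, beside -0.01 over all tested genes in each line. Over the members with more than 3 counts in each group the medians were 0.15 (54 members) and -0.36 (59 members). In bulk libraries such as these, fewer expressing cells and less RNA per cell cannot be told apart. A call here means a Benjamini-Hochberg adjusted p under 0.05 over all tested genes in the quasi-likelihood test of edgeR fitted to all 12 libraries, and other fits are named where they are used. The response itself differed between the lines for 15 members, higher in HCC70 for 12 and lower for 3, against 6.96% and 5.09% of all tested genes.

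GC content of the exons moved with these responses. Over 14596 well-counted genes, the log2 fold change rose with GC content in HCC70 (Spearman correlation 0.503) and fell with it in MDA-MB-231 (-0.448), a description across genes that share the same libraries. The tested members had a median GC content of 58.8%, against 47.9% over all tested genes with a value, and over the 61 members the correlation was 0.546 in HCC70 and -0.272 in MDA-MB-231. In MDA-MB-231, vehicle library 1 and DEX library 2 stood apart from their group mates along this trend. The rank correlation, over 13642 genes, between a gene's deviation from the mean of its line and its GC content was 0.701 in that vehicle library against 0.174 and -0.249 in the other vehicle libraries, and 0.28 in that DEX library against -0.536 and -0.521. With a per-library offset for GC content and gene length, 7 members rose and 4 fell in HCC70 (background 5.07% and 2.02%), and 6 rose and 14 fell in MDA-MB-231 (background 6.04% and 12.6%). The members' medians then became 0.02 and -0.18, beside 0.037 and -0.095 over all tested genes. Without those 2 libraries, 18 rose and 3 fell in HCC70 (background 8.86% and 4.67%), and 5 rose and 23 fell in MDA-MB-231 (background 8.68% and 11.6%). Fitted on its own, HCC70 had 21 members higher and 4 lower (background 11.9% and 7.13%), or 15 and 7 with the offset (12.6% and 5.69%), while MDA-MB-231 on its own had 8 lower (3.92%). The response was higher in HCC70 for 27 members without the 2 libraries (12.6%) and for 21 by DESeq2's Wald test (13.6%). With the offset the response was higher in HCC70 for 13 members and lower for 4, beside 3411 and 1121 of all 28141 tested genes. The members' median difference went from 0.50 to 0.18 with the offset, while that of all tested genes went from -0.015 to 0.136. Below, the value with that offset is given beside many of the genes named.

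**Figure D1:**
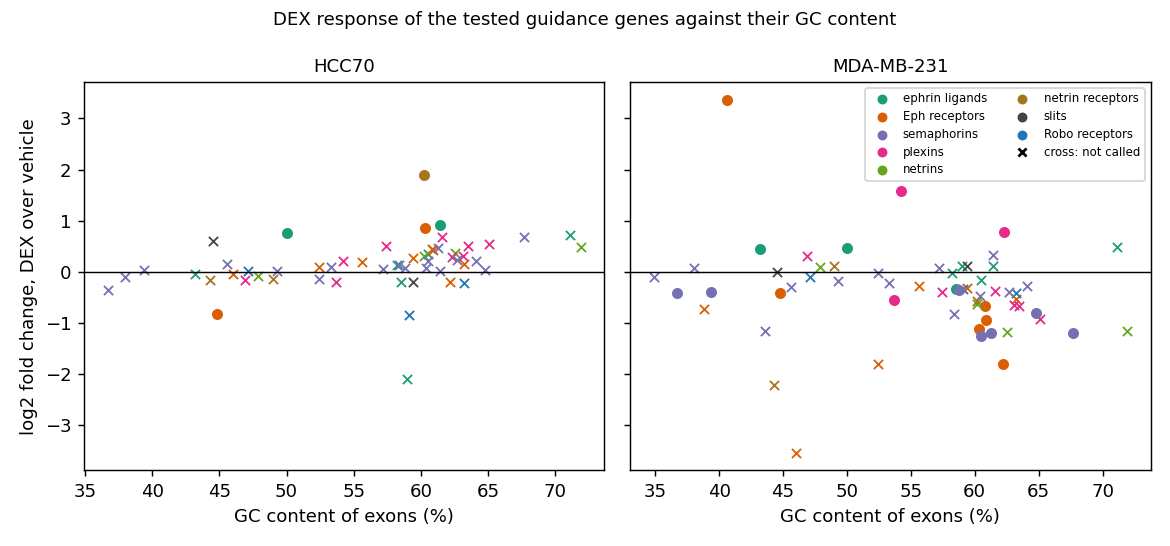
GC content of the exons (x axis, percent) against the log2 fold change of DEX over vehicle (y axis) for the tested guidance genes in HCC70 (left) and MDA-MB-231 (right), coloured by family; circles are called and crosses are not, and the 4 members with at most 3 counts in both HCC70 groups are left out on the left. GC-rich members lie mostly above 0 in HCC70 and mostly below 0 in MDA-MB-231.

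In both lines 3 members passed: EFNB2 rose in both, EPHA4 fell in both, and EPHA2 rose in HCC70 and fell in MDA-MB-231. The share of all tested genes that passed in both lines was not counted, so this overlap is not read as small or large. The promoter sequences of these 3 are shown because the genes passed in both lines. Each is 220 bases, 5′ to 3′ along the gene, from 250 to 31 bases upstream of the RefSeq start (GRCh38.p14). EPHA4 has 2 listed starts. Capitals mark the letters GNACANNNTGTNC, a loose form of the palindromic binding site of the glucocorticoid receptor, which reads the same on both strands.
EFNB2 (chr13:106535693-106535912, minus strand): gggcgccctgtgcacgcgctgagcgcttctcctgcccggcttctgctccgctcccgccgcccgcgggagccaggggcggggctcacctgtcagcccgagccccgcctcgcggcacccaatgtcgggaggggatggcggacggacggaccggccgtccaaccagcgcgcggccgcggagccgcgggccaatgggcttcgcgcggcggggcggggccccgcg
EPHA4, upstream start (chr2:221574233-221574452, minus strand): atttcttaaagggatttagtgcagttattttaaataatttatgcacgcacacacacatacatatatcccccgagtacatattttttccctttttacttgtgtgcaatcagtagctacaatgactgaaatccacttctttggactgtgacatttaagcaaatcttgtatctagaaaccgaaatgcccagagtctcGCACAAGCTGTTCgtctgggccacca
EPHA4, downstream start (chr2:221572335-221572554, minus strand): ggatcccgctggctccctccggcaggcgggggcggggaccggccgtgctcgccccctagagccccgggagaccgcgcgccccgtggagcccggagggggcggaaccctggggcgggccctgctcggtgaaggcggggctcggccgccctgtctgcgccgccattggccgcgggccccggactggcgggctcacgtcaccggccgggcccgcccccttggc
EPHA2 (chr1:16156100-16156319, minus strand): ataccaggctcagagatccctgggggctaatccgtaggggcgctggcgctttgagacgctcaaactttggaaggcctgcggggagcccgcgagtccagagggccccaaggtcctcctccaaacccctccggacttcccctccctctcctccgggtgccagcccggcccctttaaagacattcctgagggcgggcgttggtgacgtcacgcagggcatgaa

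The capitals appear once, as GCACAAGCTGTTC, 56 to 44 bases before the upstream start of EPHA4. A RefSeq promoter window was found for 59 of the 68 members, and this was the only match among their 91 windows of 300 bases (1.1%), while 137 of all 35116 windows (0.39%) held these letters. The shorter AGAACA or its reverse complement TGTTCT, which overlaps the longer pattern in part, stood in 14.8% of all windows and in 2 member windows (2.2%), those of EPHB6 and NTN5. GC content of the printed stretch was 80% for EFNB2, 38.6% and 81.8% for the upstream and downstream starts of EPHA4, and 64.5% for EPHA2. A match is a description of letters and no match says only that they are not in this window.

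Among the ephrin ligands, in HCC70 vehicle the most abundant ephrins per exon length were EFNA3 (34.3 CPM per kb), EFNA1 (27.9 CPM per kb) and EFNA4 (18.6 CPM per kb), 3 A-class ligands whose genes lie next to each other. In MDA-MB-231 vehicle the transmembrane ligand EFNB2 led with 14.3 CPM per kb, ahead of EFNA5 with 5.21 CPM per kb. With DEX, 2 of the 8 ephrins rose in HCC70 (EFNA3 and EFNB2) and 2 rose and 1 fell in MDA-MB-231 (EFNB2 and EFNA5 rose, EFNA1 fell).

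EFNB2 (ENSG00000125266.5), the preferred ligand of EPHB4, measured 37.8, 37.8 and 36.8 CPM in the HCC70 vehicle libraries and 63, 63.4 and 63.6 CPM with DEX. All 3 treated libraries lay above all controls, a log2 fold change of 0.76 (SE 0.058, adjusted p = 3.13e-06). In MDA-MB-231 it measured 66.4, 73.5 and 75.9 CPM in vehicle and 96.1, 99.2 and 102 CPM with DEX, again without overlap, with a log2 fold change of 0.46 (SE 0.057, adjusted p = 6.64e-05). With the GC and length offset the changes were 0.76 and 0.46. The difference between the lines, 0.29 on the log2 scale (SE 0.081), had an adjusted p of 0.033 and was not called without any 1 of 10 libraries (adjusted p 0.0541 to 0.101), that is all 6 of HCC70, the 3 DEX libraries of MDA-MB-231 and its vehicle library 2. It was not called either with library size scaling only (0.18, adjusted p = 0.256). In the GENCODE annotation 26.2% of EFNB2 exon bases also belong to the antisense gene AL138689.2, and these unstranded counts cannot separate the transcripts.

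EFNA3 (ENSG00000143590.9), a lipid-anchored ligand of EphA receptors, stood at 61.9, 61.5 and 73.3 CPM in HCC70 vehicle and at 126, 123 and 120 CPM with DEX. The groups did not overlap and the log2 fold change was 0.91 (SE 0.078, adjusted p = 9.58e-06). In MDA-MB-231 it was near the bottom of its range, with means of 1.71 CPM in vehicle and 1.85 CPM with DEX (log2 fold change 0.11, adjusted p = 0.495). The responses differed by 0.80 (SE 0.13, adjusted p = 0.00104). With the GC and length offset EFNA3 passed in both lines, at 0.76 and 0.28, and the difference was 0.48 (adjusted p = 0.00317). Its neighbours EFNA4 and EFNA1 were not called in HCC70: EFNA4 went from 23.5 to 25.9 CPM and EFNA1 from 70.7 to 61.6 CPM (adjusted p = 0.369 and 0.0998; EFNA1 0.0152 with the offset). A readthrough gene, AL691442.1, covers 44.7% of the EFNA3 exon bases on the same strand.

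EFNA5 (another A-class ligand) gave 28.8, 30.6 and 29.7 CPM in MDA-MB-231 vehicle and 40.4, 40.1 and 40.8 CPM with DEX, a gap with no overlap (log2 fold change 0.45, SE 0.06, adjusted p = 0.000145). In HCC70 its means were 67.7 and 65.9 CPM (adjusted p = 0.777), and the responses differed by -0.48 (SE 0.084, adjusted p = 0.00256). With the offset the change in MDA-MB-231 was 0.36 and the difference -0.32 (adjusted p = 0.00752). EFNA1, a main ligand of EPHA2, fell from 2.66 ± 0.055 to 2.11 ± 0.085 CPM in MDA-MB-231 (SD, n = 3; log2 fold change -0.33, adjusted p = 0.00762); with the GC and length offset the change was -0.26 with an adjusted p of 0.0587. The B-class ligand EFNB1 was at 27.9 and 35.8 CPM in HCC70 vehicle and DEX (adjusted p = 0.23) and was called there with HCC70 fitted alone. EFNA2 and EFNB3 stayed under 0.4 CPM in every library.

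**Figure D2:**
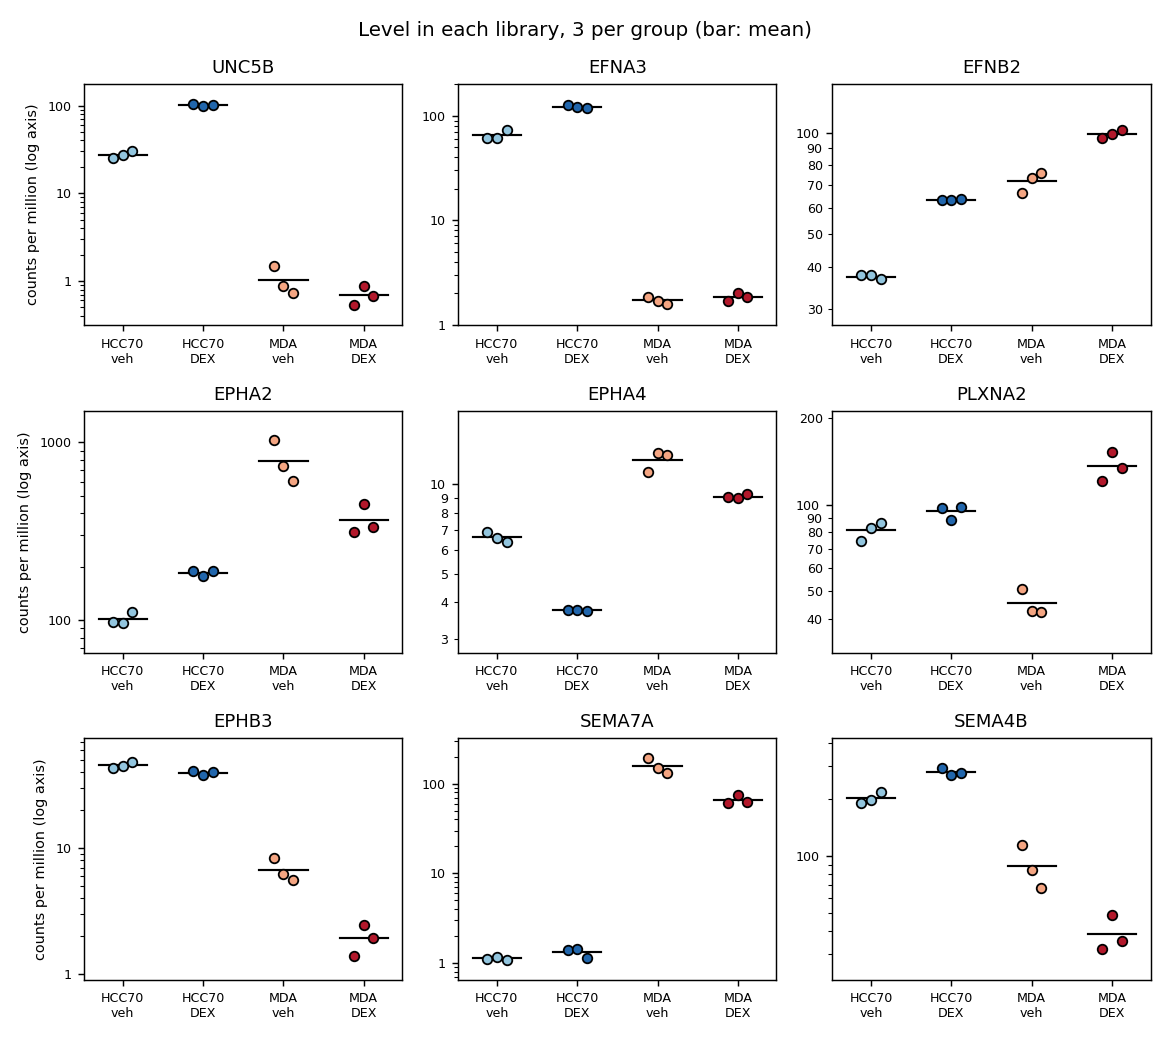
Level in each library (y axis, CPM on a log axis) of 9 guidance genes in the 4 groups (x axis; veh, ethanol vehicle); points are libraries and bars are means of 3. UNC5B and EFNA3 separate the HCC70 groups only, and PLXNA2, EPHB3, SEMA7A and SEMA4B separate the MDA-MB-231 groups. PLXNA2, EPHB3 and SEMA4B also separate the HCC70 groups, by smaller changes. EPHA2 moves up in HCC70 and down in MDA-MB-231.

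Of 12 tested Eph receptors, 1 rose (EPHA2) and 1 fell (EPHA4) in HCC70, while in MDA-MB-231 1 rose (EPHA3) and 5 fell (EPHA2, EPHA4, EPHB3, EPHB4 and EPHB6). EPHA2 was the leading receptor of MDA-MB-231 in vehicle with 190 of a summed 240 CPM per kb, and EPHB4 that of HCC70 with 37.3 of 141 CPM per kb. For 5 receptors (EPHA2, EPHB2, EPHB3, EPHB4 and EPHB6) the response was higher in HCC70 than in MDA-MB-231, and for EPHA4 it was lower.

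EPHA2 (ENSG00000142627.9), a kinase often abundant in aggressive breast cancer lines, measured 97.6, 96.3 and 112 CPM in HCC70 vehicle and 189, 177 and 189 CPM with DEX. The groups were separate, and the log2 fold change was 0.86 (SE 0.18, adjusted p = 0.0279). The call did not hold without any 1 of the 6 HCC70 libraries (adjusted p 0.0563 to 0.13), with no low-count filter (adjusted p = 0.0756) or with the replicate block (adjusted p = 0.0736). In MDA-MB-231 the level was 1029, 736 and 607 CPM in vehicle and 314, 449 and 334 CPM with DEX, so that every treated library lay below every control (log2 fold change -1.11, SE 0.18, adjusted p = 0.00216). The lines' responses differed by 1.97 (SE 0.26, adjusted p = 0.000876). With the GC and length offset the changes were 0.67 and -0.86 and the difference 1.53 (adjusted p = 0.000174, 3.78e-06 and 8.71e-07). The GC content of EPHA2 exons was 60.3%, and in MDA-MB-231 the highest vehicle library (1) and the highest DEX library (2) were the pair that stood apart by GC content.

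EPHA4 (ENSG00000116106.7), which unlike most of its family binds ligands of both classes, moved from 6.9, 6.57 and 6.41 CPM to 3.78, 3.77 and 3.74 CPM in HCC70. The treated libraries were nearly equal to each other and below all controls (log2 fold change -0.82, SE 0.078, adjusted p = 2.78e-05). In MDA-MB-231 it went from 11, 12.8 and 12.6 CPM to 9.03, 8.96 and 9.24 CPM, also without overlap (log2 fold change -0.42, SE 0.074, adjusted p = 0.00145). The offset left these at -0.76 and -0.48. The difference of -0.40 (SE 0.11) had an adjusted p of 0.0298 and was not called without any 1 of 7 libraries (adjusted p 0.0595 to 0.0824): the 3 DEX libraries and vehicle 1 and 2 of HCC70, and DEX 1 and 3 of MDA-MB-231. An antisense gene shares 4.67% of EPHA4 exon bases.

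EPHB3, a receptor for B-class ephrins known from cell positioning in the intestinal crypt, was at 8.32, 6.25 and 5.54 CPM in MDA-MB-231 vehicle and at 1.4, 2.46 and 1.92 CPM with DEX. That is a log2 fold change of -1.80 (SE 0.18, adjusted p = 4.38e-05) with no overlap, against a shift from 45.4 to 39.6 CPM in HCC70 (adjusted p = 0.539). The responses differed by 1.60 (SE 0.24, adjusted p = 0.00181), and by 1.02 with the offset, where the change in MDA-MB-231 was -1.47. With the offset EPHB3 also fell in HCC70, by 0.45 on the log2 scale (adjusted p = 0.000232).

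EPHB6, a family member without kinase activity, measured 25.7, 19.5 and 15.9 CPM in MDA-MB-231 vehicle and 9.25, 12.4 and 10.1 CPM with DEX (log2 fold change -0.94, SE 0.16, adjusted p = 0.00236). Its means in HCC70 were 170 and 227 CPM (log2 fold change 0.42, adjusted p = 0.19), and the responses differed by 1.36 (SE 0.23, adjusted p = 0.00334). With the offset EPHB6 passed in HCC70 too (0.20, adjusted p = 0.0375), the change in MDA-MB-231 was -0.65 and the difference was 0.86. EPHB4, the receptor of EFNB2, gave 207, 150 and 117 CPM in MDA-MB-231 vehicle and 83.4, 122 and 93 CPM with DEX. Here the groups overlapped, since DEX library 2 lay above vehicle library 3, and the log2 fold change of -0.67 (SE 0.19) had an adjusted p of 0.0424. That call was lost without any 1 of 10 libraries (adjusted p 0.0562 to 0.152), all except MDA-MB-231 DEX 2 and vehicle 3. It was also lost with the replicate block (adjusted p = 0.0948), with that line alone (0.183) and with no low-count filter (0.0987), and the change was -0.38 with the offset (adjusted p = 0.00316). In HCC70 EPHB4 went from 240 to 325 CPM with separate groups (log2 fold change 0.44, adjusted p = 0.256). It was called higher there with HCC70 fitted alone (adjusted p = 0.000127). The EPHB4 difference of 1.11 (SE 0.27, adjusted p = 0.0273) was lost without any 1 of 7 (adjusted p 0.051 to 0.0757), the 7 libraries named for the EPHA4 difference, and was 0.59 with the offset.

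EPHA3 was almost silent in MDA-MB-231 vehicle, at 0.0167, 0.0469 and 0.0175 CPM (10 counts in all), and reached 0.268, 0.283 and 0.325 CPM with DEX (112 counts). The log2 fold change of 3.36 (SE 0.47, adjusted p = 0.000395) rests on these few reads. HCC70 held 1 EPHA3 count in vehicle and 0 with DEX. EPHB2 was called in neither line by edgeR over all 12 libraries, going from 189 to 215 CPM in HCC70 and from 156 to 130 CPM in MDA-MB-231 (adjusted p = 0.273 and 0.0564). It was called lower in MDA-MB-231 by DESeq2's Wald test (adjusted p = 0.0444) and higher in HCC70 fitted alone (adjusted p = 0.0106). Its responses differed by 0.46 (SE 0.12, adjusted p = 0.031), but by 0.18 (adjusted p = 0.0645) with the GC and length offset, and the call was lost without any 1 of 8 libraries (adjusted p 0.0534 to 0.0855: HCC70 DEX 1, 2 and 3 and vehicle 1 and 2, MDA-MB-231 DEX 1 and 3 and vehicle 2). EPHA1, EPHA5, EPHA6, EPHA10 and EPHB1 were called in neither line in the fit of all 12 libraries. EPHA5 was called lower in MDA-MB-231 with the offset (-0.82, adjusted p = 0.0477), and EPHA1 higher in HCC70 fitted alone (adjusted p = 0.00127).

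**Figure D3:**
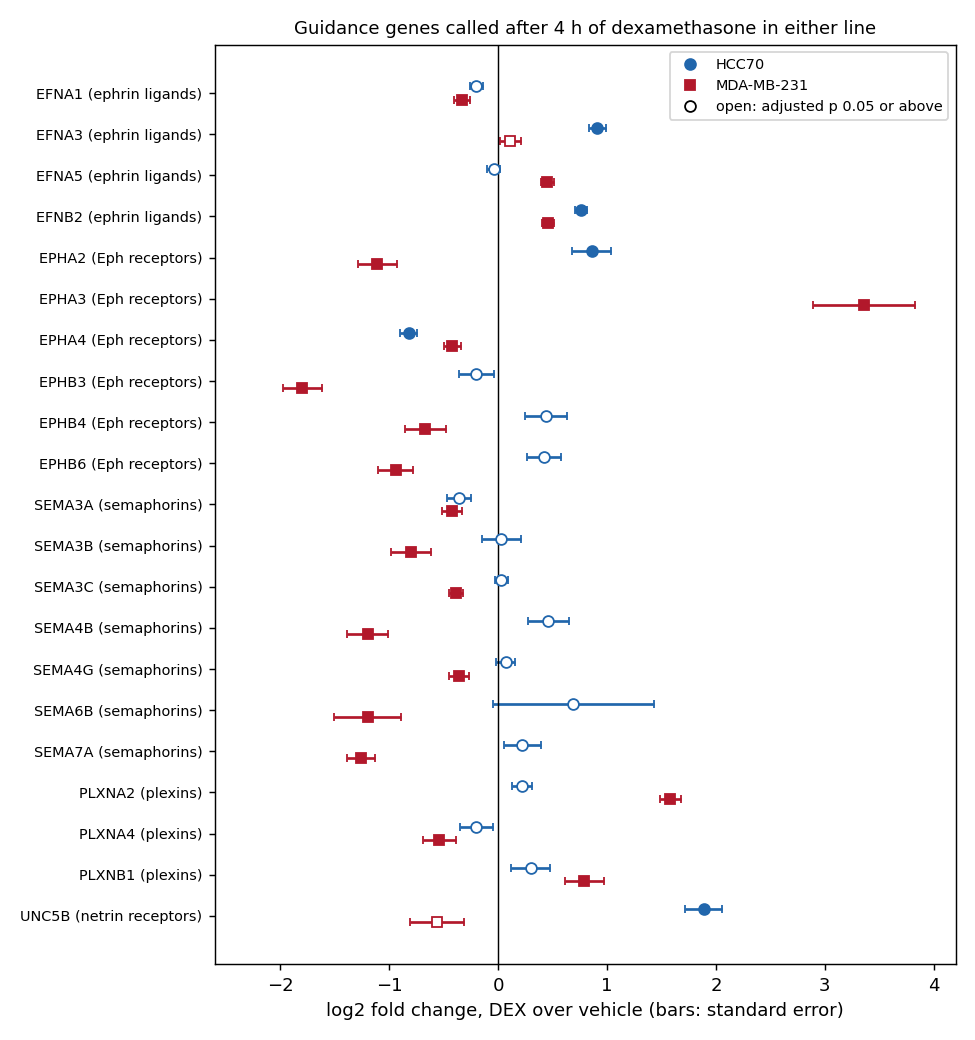
Log2 fold change of DEX over vehicle (x axis, bars give the standard error) for the 21 guidance genes called in either line, in HCC70 (blue circles) and MDA-MB-231 (red squares); open symbols have an adjusted p of 0.05 or above, and EPHA3 is not drawn for HCC70, where it had 1 count in vehicle and 0 with DEX. Most filled red squares lie left of 0, and EPHA2 is the only gene with filled symbols on opposite sides.

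None of the 20 semaphorins was called in HCC70 over all 12 libraries by edgeR or by DESeq2's Wald test (2 of 20 had an unadjusted edgeR p under 0.05). With HCC70 fitted alone SEMA3F, SEMA4B and SEMA6C were called higher (adjusted p = 0.00693, 2.61e-05 and 0.03), and with the offset SEMA4B was called higher and SEMA3B lower. In the fit of all 12 libraries 7 fell and 0 rose in MDA-MB-231: SEMA3A, SEMA3B, SEMA3C, SEMA4B, SEMA4G, SEMA6B and SEMA7A. The lines carried different sets in vehicle. Per exon length, HCC70 was led by SEMA3F (55.3 CPM per kb), SEMA4B (29 CPM per kb) and SEMA4C (17.5 CPM per kb), and MDA-MB-231 by SEMA7A (41.7 CPM per kb), SEMA3B (24.2 CPM per kb) and SEMA3C (17.9 CPM per kb).

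SEMA7A (ENSG00000138623.4), a lipid-anchored semaphorin that binds PLXNC1 and integrins, measured 193, 150 and 133 CPM in MDA-MB-231 vehicle and 60.3, 75.4 and 63.2 CPM with DEX. The treated libraries lay far below the controls, with a log2 fold change of -1.26 (SE 0.13, adjusted p = 2.01e-05). In HCC70 it was at 1.12 and 1.31 CPM (adjusted p = 0.525), and the responses differed by 1.48 (SE 0.21, adjusted p = 0.000857). SEMA4B, a membrane-spanning semaphorin, gave 114, 83.8 and 67.3 CPM in MDA-MB-231 vehicle and 31.9, 48.5 and 35.1 CPM with DEX (log2 fold change -1.20, SE 0.19, adjusted p = 0.00179). In HCC70 the same gene went from 203 to 280 CPM with separate groups (log2 fold change 0.46, adjusted p = 0.23), and passed there with the GC and length offset (0.25, adjusted p = 0.0445). The SEMA4B responses differed by 1.66 (SE 0.27, adjusted p = 0.00349). With the offset, the changes in MDA-MB-231 were -1.02 for SEMA7A and -0.92 for SEMA4B, and the differences 1.06 and 1.16.

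SEMA3B, a secreted semaphorin described as a tumour suppressor, stood at 178, 132 and 109 CPM in MDA-MB-231 vehicle and at 69.2, 97.2 and 74.9 CPM with DEX (log2 fold change -0.80, SE 0.18, adjusted p = 0.014). Its call was lost without DEX library 1 or 3 of MDA-MB-231 (adjusted p 0.0604 to 0.0623), with the replicate block (0.0529) and with that line alone (0.0944), and the change was -0.37 with the GC and length offset (adjusted p = 9.17e-05). With that offset it passed in HCC70 as well (-0.27, adjusted p = 0.00417), where the means were 58.4 and 59.6 CPM. SEMA3A, the classic growth-cone collapsing factor, fell from 10.3, 12.6 and 12.2 CPM to 8.63, 8.66 and 8.87 CPM (log2 fold change -0.42, SE 0.092, adjusted p = 0.00674). Its HCC70 means were 1.9 and 1.49 CPM, also separate but not called (adjusted p = 0.0966). SEMA3C fell from 103, 121 and 114 CPM to 88.3, 81.5 and 88.2 CPM (log2 fold change -0.39, SE 0.063, adjusted p = 0.000729) and was level in HCC70 at 39.4 and 40.4 CPM. SEMA3A and SEMA3C exons have a GC content of 36.7% and 39.4%, and with the offset their changes were -0.50 and -0.49. The SEMA3C responses differed by 0.42 (SE 0.089, adjusted p = 0.00898; 0.0508 without HCC70 DEX 1).

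SEMA6B, a membrane-spanning ligand of class A plexins, was at 84.2, 59.4 and 38.2 CPM in MDA-MB-231 vehicle and at 18.7, 38.3 and 22.1 CPM with DEX. DEX library 2 just exceeded vehicle library 3, and the log2 fold change was -1.20 (SE 0.31, adjusted p = 0.0314). That call was lost without DEX 1 or 3 or vehicle 1 or 2 of MDA-MB-231 (adjusted p 0.0676 to 0.111), with the replicate block (0.053), with that line alone (0.142) and with no low-count filter (0.0661), and the change was -0.62 with the offset (adjusted p = 0.0004). SEMA4G went from 5.29 ± 0.26 to 4.14 ± 0.47 CPM in MDA-MB-231 (SD, n = 3; log2 fold change -0.36, adjusted p = 0.0205). With the GC and length offset it changed by -0.16 (adjusted p = 0.311), and without DEX 1 or vehicle 2 of MDA-MB-231 the adjusted p was 0.0978 or 0.051. The SEMA4G difference of 0.42 (adjusted p = 0.0453) became 0.06 with the offset (adjusted p = 0.823), and was lost without any 1 of 8 libraries (adjusted p 0.0586 to 0.115: HCC70 DEX 1, 2 and 3 and vehicle 1 and 2, MDA-MB-231 DEX 1 and vehicle 2 and 3). Its exons share 22.3% of their bases with MRPL43 on the opposite strand. SEMA3D, SEMA3E, SEMA3F, SEMA3G, SEMA4A, SEMA4C, SEMA4D, SEMA4F, SEMA5A, SEMA5B, SEMA6A, SEMA6C and SEMA6D were called in neither line in the fit of all 12 libraries. Of these, SEMA4C was called lower in MDA-MB-231 by DESeq2's Wald test (adjusted p = 0.0115) and with the offset (-0.23, adjusted p = 0.00772).

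The plexins were led in both lines by PLXNB2 (189 CPM per kb in HCC70 vehicle and 66 CPM per kb in MDA-MB-231 vehicle). None of 9 was called in HCC70 by edgeR over all 12 libraries, where 2 had an unadjusted p under 0.05. DESeq2's Wald test called 1 (PLXNA1, adjusted p = 0.012), and edgeR on HCC70 alone called 7 higher (PLXNA1, PLXNA2, PLXNA3, PLXNB1, PLXNB2, PLXNB3 and PLXND1). In MDA-MB-231 2 rose (PLXNA2 and PLXNB1) and 1 fell (PLXNA4). PLXNA2 (ENSG00000076356.6), a receptor for class 6 semaphorins and, with neuropilins, for class 3, measured 51, 42.7 and 42.3 CPM in MDA-MB-231 vehicle and 121, 153 and 134 CPM with DEX. The lowest treated library had over 2 times the level of the highest control, and the log2 fold change was 1.58 (SE 0.097, adjusted p = 5.24e-08). In HCC70 it went from 81.3 to 94.7 CPM (log2 fold change 0.22, adjusted p = 0.235), so the responses differed by -1.36 (SE 0.13, adjusted p = 1.94e-05).

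PLXNB1, the receptor of SEMA4D, gave 18.2, 13.5 and 11.2 CPM in MDA-MB-231 vehicle and 20.4, 31.1 and 22.5 CPM with DEX (log2 fold change 0.79, SE 0.18, adjusted p = 0.017; 0.0629 without vehicle 2 of that line). The call was also lost with that line fitted alone (adjusted p = 0.118). The offset gave 1.15 (adjusted p = 2.48e-10), and the response difference for PLXNB1 went from -0.48 (adjusted p = 0.234) to -1.13 (adjusted p = 3.83e-08). PLXNA4 fell from 1.84, 1.39 and 1.31 CPM to 1.05, 1.16 and 0.913 CPM (log2 fold change -0.54, SE 0.15, adjusted p = 0.0315). That call was lost without DEX 1 or 3 or vehicle 1 of MDA-MB-231 (adjusted p 0.0885 to 0.144) and with the offset (adjusted p = 0.0501). PLXNA1, PLXNA3, PLXNB2, PLXNB3 and PLXND1 had every DEX library above every control in HCC70, with log2 fold changes between 0.32 and 0.68, and were not called in the fit of all 12 libraries (adjusted p 0.169 to 0.548). The share of all tested genes with such a separation was not counted, so it is not read as particular to these 5 plexins. With HCC70 fitted alone all 5 were called (adjusted p 8.28e-05 for PLXNA1 to 0.00821 for PLXNB2), and with the offset added to that fit 4 of the 5 were, without PLXNB2. In MDA-MB-231 their changes lay between -0.92 and -0.38 with overlapping groups. With the offset PLXNA1 passed in HCC70 (0.41, adjusted p = 0.0207) and PLXNB3 passed in MDA-MB-231 (-0.44, adjusted p = 0.014). PLXNC1, the receptor of SEMA7A, was at 1.67 CPM in MDA-MB-231 vehicle and 2.09 CPM with DEX (adjusted p = 0.271).

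Among netrin receptors, UNC5B (ENSG00000107731.8), a netrin receptor known to signal cell death when its ligand is missing, had the largest rise among the called members in HCC70. It measured 25.5, 27 and 30.3 CPM in vehicle and 105, 100 and 101 CPM with DEX, far apart, with a log2 fold change of 1.89 (SE 0.17, adjusted p = 8.75e-05). In MDA-MB-231 it was at 1.47, 0.875 and 0.736 CPM in vehicle and 0.528, 0.88 and 0.681 CPM with DEX, where the groups overlapped (log2 fold change -0.56, adjusted p = 0.153, and 0.0379 by DESeq2's Wald test). The responses differed by 2.45 (SE 0.3, adjusted p = 0.000415), the largest called difference among the members, and by 1.95 with the GC and length offset, which gave 1.67 in HCC70. None of the 4 netrins was called in either line in the fit of all 12 libraries by edgeR or DESeq2 (0 had an unadjusted edgeR p under 0.05 in HCC70, and 2 in MDA-MB-231). With HCC70 fitted alone NTN1 and NTN3 were called higher (0.37 and 0.49, adjusted p = 0.000653 and 0.0419). Without MDA-MB-231 vehicle 1 and DEX 2 they were also called higher in HCC70, and NTN3 lower in MDA-MB-231. NTN1, the ligand of UNC5B, had means of 24.4 and 31.4 CPM in HCC70 (adjusted p = 0.302), and NTN4, a netrin of basement membranes and the most abundant one in both lines, had 98 and 93.4 CPM there (adjusted p = 0.515). UNC5C stood at 29.7 and 26.5 CPM in HCC70, and NEO1, the neogenin receptor, at 5.28 and 5.73 CPM in MDA-MB-231, neither called in the fit of all 12 libraries. With HCC70 fitted alone UNC5C was called lower. DCC had 5 counts over the 12 libraries.

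None of the 5 tested slits and Robo receptors was called with DEX in either line by edgeR or DESeq2, and 0 of 5 had an unadjusted edgeR p under 0.05. SLIT2, the ligand best known in breast, was at 16.6, 16.4 and 18.2 CPM in MDA-MB-231 vehicle and 17.1, 16.9 and 17.1 CPM with DEX, with overlapping groups. ROBO4, a receptor typical of endothelium, had 44, 31.6 and 30.5 CPM in MDA-MB-231 vehicle and 24.9, 33.7 and 26 CPM with DEX (adjusted p = 0.263). Of the 4 endothelial markers in the table, CDH5 did not exceed 0.0547 CPM in that line, while KDR reached 1 CPM. The 4 summed there to 2.78 to 3.37 CPM in vehicle and to 20.9 to 23.8 CPM with DEX. ROBO1 was at 15.8 CPM in both HCC70 groups.

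The other genes of these pathways, 94 in the table of which 84 were tested, counted as follows: 3 rose and 2 fell in HCC70, and 12 rose and 14 fell in MDA-MB-231. Of all tested genes, 2.55% rose and 1.4% fell in HCC70, and 6.65% rose and 7.96% fell in MDA-MB-231. The same shares are the background for the smaller lists below. The median log2 fold changes of the 84 genes were 0.05 and -0.03, beside -0.01 over all tested genes in each line. Of 12 tested co-receptors and further ligands, 1 rose and 1 fell in HCC70, and 1 rose and 4 fell in MDA-MB-231. NRP2, the neuropilin that carries class 3 semaphorins such as SEMA3F, rose in HCC70 from 24, 24.8 and 26.7 CPM to 39.8, 38.8 and 41.7 CPM (log2 fold change 0.67, adjusted p = 0.00014). In MDA-MB-231 it fell from 31.9, 30 and 26.2 CPM to 19.5, 20.9 and 22.1 CPM (log2 fold change -0.50, adjusted p = 0.000505), and the responses differed by 1.17 (SE 0.11, adjusted p = 1.09e-05). NRP1 fell in HCC70 from 112 to 89 CPM (adjusted p = 0.0148). RGMB, a ligand of neogenin, fell in MDA-MB-231 from 56.9 to 31.1 CPM (log2 fold change -0.87, adjusted p = 2.06e-07), as did FLRT2, a ligand of UNC5 receptors, from 25.3 to 17.3 CPM and NTNG2 from 6.38 to 4.4 CPM (adjusted p = 0.00203 and 0.0439; NTNG2 0.244 with the offset and 0.0879 with that line alone).

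Among intracellular partners, ABLIM3, an actin-binding LIM protein of the netrin pathway, rose in both lines, from 22.1, 23 and 24 CPM to 52.3, 53.6 and 53.7 CPM in HCC70 and from 65.2, 67.9 and 62.7 CPM to 167, 182 and 174 CPM in MDA-MB-231. The log2 fold changes were 1.21 and 1.42 (adjusted p = 3.35e-08 and 6.84e-10). The netrin receptor effectors SIAH2, MYO10 and DAPK1 fell in MDA-MB-231 by 0.39, 0.32 and 0.28 on the log2 scale. With that line fitted alone SIAH2 and DAPK1 were not called (adjusted p = 0.0613 and 0.063). Of 23 tested ephrin effectors, 0 were called in HCC70 by edgeR (4 had an unadjusted p under 0.05, and DESeq2 called 1), and 2 rose and 5 fell in MDA-MB-231. There RASA1, a Ras GTPase-activating protein recruited by Eph receptors, went from 129 to 81.6 CPM (adjusted p = 4.26e-06), ARHGEF16 from 7.8 to 3.68 CPM (adjusted p = 0.00725), ABL1 from 181 to 128 CPM (adjusted p = 0.000968), and TIAM1, a Rac activator, from 9.24 to 12.6 CPM (adjusted p = 0.000214). The offset moved ARHGEF16 from -1.09 to -0.62 and ABL1 from -0.50 to -0.25 on the log2 scale, and with that line alone ARHGEF16 was not called (adjusted p = 0.0761). Of 18 semaphorin and plexin effectors, FARP2 and MICAL2 rose by 0.21 and 0.19 and ARHGEF11 fell by 0.29 on the log2 scale in MDA-MB-231 (FARP2 adjusted p = 0.0915 with the offset). None of these 3 was called with that line fitted alone by edgeR (adjusted p = 0.0833, 0.108 and 0.159), and the groups overlapped for ARHGEF11. ENAH, an actin polymerising factor downstream of Robo, rose from 49.5 to 68.2 CPM there (adjusted p = 0.000107). RND3, an atypical small GTPase, fell in HCC70 from 27.5 to 21.9 CPM and rose in MDA-MB-231 from 43.9 to 53.4 CPM (adjusted p = 0.0147 and 0.0115; 0.137 in MDA-MB-231 with the offset). The small GTPases RAC1 and CDC42 rose in MDA-MB-231 from 237 to 292 CPM and from 171 to 205 CPM (adjusted p = 0.0166 and 0.00408; CDC42 0.354 with the offset). RAC1 had a log2 fold change of 0.30, or 0.12 with the offset, and was not called with that line alone (adjusted p = 0.0638). LIMK2, a kinase that slows actin turnover, fell in MDA-MB-231 from 27.8 to 20.5 CPM (adjusted p = 0.000529).

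In vehicle, the lines differed in most guidance genes: 33 of 61 were higher in HCC70 and 25 were higher in MDA-MB-231, against a background of 39.2% and 40% of all tested genes. The median log2 difference, HCC70 over MDA-MB-231, was 0.60 for the members and -0.03 for all tested genes. At a mean of at least 1 CPM, 39 members were detected in both lines, 6 in HCC70 alone, 8 in MDA-MB-231 alone and 15 in neither. PLXNA3, SEMA4F and SLIT1 were not called. The lines were grown in unlike media, as stated above.

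The 4 netrins were all higher in HCC70, among them NTN1 with 24.4 against 0.26 CPM (log2 difference 6.54, SE 0.27) and NTN3 with 5.52 against 0.504 CPM (3.45, SE 0.36). Of the netrin receptors, UNC5C had 30.5, 28.1 and 30.6 CPM against 0.00837, 0.0156 and 0.0613 CPM (10 counts in all), and UNC5B had 27.6 against 1.03 CPM (log2 difference 4.74). The A-class ephrins EFNA3 (65.5 against 1.71 CPM) and EFNA1 (70.7 against 2.66 CPM) were higher in HCC70 too, with log2 differences of 5.26 and 4.73. Among receptors, EPHB1 had 1.55 against 0.039 CPM, EPHB6 170 against 20.4 CPM and PLXNB1 172 against 14.3 CPM. Of the semaphorins, SEMA5B (64.9 against 0.118 CPM), SEMA4A (6.69 against 0.0957 CPM) and SEMA3F (267 against 14.1 CPM) led. Adjusted p-values of these 12 genes were at most 4.56e-06, and their groups did not overlap.

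SLIT2 had 16.6, 16.4 and 18.2 CPM in MDA-MB-231, against 0.0168, 0 and 0.0343 CPM in HCC70 (6 counts). ROBO4 had a mean of 35.4 CPM against 4 counts in all HCC70 vehicle libraries, and ROBO3, its neighbour on the chromosome, 39.8 against 2.03 CPM (log2 difference -4.29, SE 0.35). ROBO1 went the other way, at 15.8 CPM in HCC70 and 3.95 CPM in MDA-MB-231. EPHA2 stood at 791 against 102 CPM (log2 difference -2.95, SE 0.2) and EPHA10, a receptor without kinase activity, at 1.08 against 0.192 CPM. EPHA5 was at 0 in all HCC70 libraries and at 1.04 CPM in MDA-MB-231 vehicle, at least 120-fold higher against a floor of 3 counts over the group (0.00865 CPM). SEMA7A had 159 against 1.12 CPM, SEMA6B 60.6 against 0.188 CPM, SEMA5A 13 against 0.377 CPM, SEMA3A 11.7 against 1.9 CPM and SEMA3D 4.39 CPM against 2 counts. PLXNC1, the receptor of SEMA7A, was also higher in MDA-MB-231, at 1.67 against 0.13 CPM (log2 difference -3.68, SE 0.25). Adjusted p-values of the 12 genes higher in MDA-MB-231 were at most 1.31e-06, and their groups did not overlap.

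**Figure D4:**
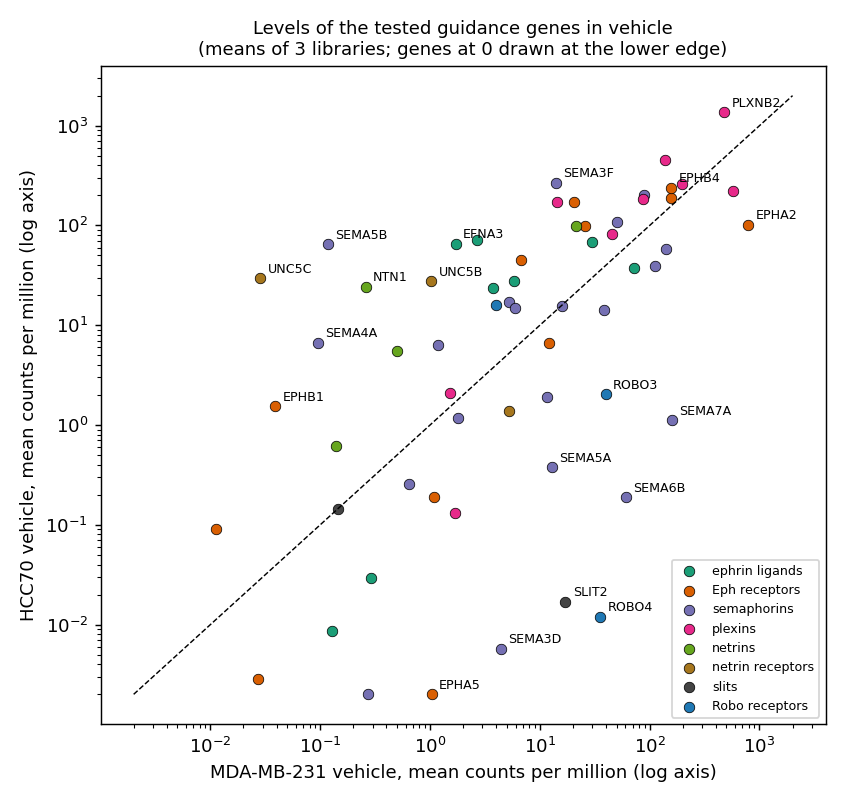
Mean level of each tested guidance gene in vehicle, 3 libraries per line, in MDA-MB-231 (x axis) and HCC70 (y axis), in CPM on log axes and coloured by family; the dashed line marks equal levels and genes at 0 sit at the lower edge. Netrins and the tested UNC5 receptors lie above the line, while the neogenin gene NEO1, SLIT2, ROBO3 and ROBO4 lie below it.

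The called vehicle differences were set beside the DEX responses, which share these vehicle libraries and so give no independent comparison. EFNA3, EFNB2, EPHA2 and UNC5B, which rose in HCC70, had vehicle means there of 65.5, 37.5, 102 and 27.6 CPM, against 1.71, 71.9, 791 and 1.03 CPM in MDA-MB-231. Of the members that fell in MDA-MB-231, EPHA2, EPHA4, SEMA3A, SEMA3B, SEMA3C, SEMA6B and SEMA7A were higher there than in HCC70 before treatment. SEMA7A and SEMA6B were among those highest there relative to HCC70. The rest of those that fell (EFNA1, EPHB3, EPHB4, EPHB6, PLXNA4, SEMA4B and SEMA4G) were lower there than in HCC70. For EPHB3, EPHB6 and SEMA4B the levels were 6.7 against 45.4, 20.4 against 170 and 88.4 against 203 CPM.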

How the data were processed

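RNA from the 12 libraries was poly(A)-selected and made into unstranded paired-end libraries with a transposase, per the labels' protocols. Each value the authors deposited is a whole number of reads for 1 gene in 1 library, that is a raw count. The submitters' processing notes name the hg19 build, TopHat 1.4.1, Cufflinks 1.3.0 and bedtools, without roles; the counting tool and annotation are not given in the sources used here. The deposited counts were not changed. Members and gene lists were chosen with earlier results of these data known.

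Genes passing filterByExpr (minimum count 10) were fitted with the quasi-likelihood test of edgeR 4.0.16 in R 4.3.3, with TMM scaling and 1 mean for each of the 4 groups over all 12 libraries (8 residual degrees of freedom, one estimate of the spread). Contrasts were DEX against vehicle in each line, the difference of the 2 responses (HCC70 minus MDA-MB-231), and the lines in vehicle. P-values are two-sided and were adjusted by Benjamini-Hochberg over the 28141 genes fitted (threshold 0.05). The SE is the absolute log2 fold change divided by the square root of F. CPM are counts scaled by TMM to 1e+06 per library. Totals of 106345287 to 123218973 counts make counting error small for genes above 1 CPM, and a count of 0 over a group was bounded by 3 counts. The script was tested on simulated data. GC content, exon length (for CPM per kb) and exon overlaps came from GENCODE v29 (GRCh38), promoters from RefSeq (GRCh38.p14), and no coordinate was moved between builds. The GC and length offset used splines of both, per library, trained on 11508 protein-coding genes.

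Alternatives were DESeq2 1.42.0 (size factors, Wald test), library size only, no filter, a filter of 5 CPM in 3 libraries, each line alone, the replicate number as a block, each library left out, MDA-MB-231 vehicle 1 and DEX 2 left out, and the offset. The offset with each line alone or with the block was added after seeing the data. Named members are those that passed in a line or in the difference (the 12 largest per direction where more passed, beyond which SEMA4G and EFNA1 were added after their values were seen), 12 per direction in vehicle with at least 1 CPM, and up to 3 other pathway genes per list, contrast and direction. One of the latter is not reported here. NRP2 in MDA-MB-231 and members given as not called were named after their values were seen.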

Additional observations from a re-analysis of the deposited data

Results flagged for a closer look

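The response to DEX differed between HCC70 and MDA-MB-231 for 15 members by the interaction contrast (edgeR quasi-likelihood, Benjamini-Hochberg adjusted over 28141 genes), and each is given here as the log2 response in HCC70 minus that in MDA-MB-231. Among ephrins the difference was 0.80 for EFNA3, -0.48 for EFNA5 and 0.29 for EFNB2. Among Eph receptors it was 1.97 for EPHA2, -0.40 for EPHA4, 0.46 for EPHB2, 1.60 for EPHB3, 1.11 for EPHB4 and 1.36 for EPHB6. Among semaphorins it was 0.42 for SEMA3C, 1.66 for SEMA4B, 0.42 for SEMA4G and 1.48 for SEMA7A. For the plexin PLXNA2 it was -1.36 and for the netrin receptor UNC5B 2.45. Adjusted p-values lay between 1.94e-05 (PLXNA2) and 0.0453 (SEMA4G). The calls of EFNB2, EPHA4, EPHB2, EPHB4, SEMA3C and SEMA4G were lost when single libraries were left out, with the adjusted p-values given in the report, and those of the other 9 were kept in every alternative run.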

How the results depend on the processing

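Calls of single members were followed through the alternative runs that gave the gene an adjusted p. In all of those runs, 4 of 5 calls in HCC70, 12 of 19 in MDA-MB-231, 9 of 15 in the difference and 55 of 58 in vehicle were kept. None changed sign. Runs in which a gene was filtered out or had no adjusted p were left out. EPHA3 in MDA-MB-231 was thus followed through 21 runs, against 23 for EPHB3. Members higher in HCC70 with DEX numbered 4; they were 21 with each line alone, 7 with the GC and length offset, 15 with that offset and each line alone, and 18 without MDA-MB-231 vehicle 1 and DEX 2. The 1 lower member became 2 with library size only or the strict filter, 4 with each line alone, 4 with the offset, 7 with the offset and each line alone, 3 with the offset and the replicate block, and 3 without that pair of libraries. Members lower in MDA-MB-231 numbered 14, against 8 with each line alone and 23 without that pair. Members with a higher response in HCC70 numbered 12, against 21 with DESeq2's Wald test and 27 without that pair. In vehicle the 25 lower members became 15 with the strict filter, which tests fewer genes. Without single replicates the counts ran from 3 to 5 and 1 to 2 in HCC70 (higher, lower; 2 without MDA-MB-231 vehicle 1), 4 to 5 and 9 to 27 in MDA-MB-231 (9 without DEX 1, 27 without DEX 2), 7 to 27 and 2 to 3 in the difference (7 without HCC70 DEX 1, 27 without MDA-MB-231 DEX 2, 20 without MDA-MB-231 vehicle 3), and 32 to 34 and 23 to 25 in vehicle. The counts over all tested genes moved in the same runs. Genes lower in MDA-MB-231 numbered 1248 of 28674 without its DEX 1 and 3554 of 28710 without its DEX 2. Genes with a higher response in HCC70 numbered 1061 of 28722 without HCC70 DEX 1 and 3592 of 28710 without MDA-MB-231 DEX 2. Apart from the strict filter, the cause of these changes in count was not tested. Library size only and the offset moved the median difference of all genes by -0.111 and 0.150 on the log2 scale.

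Deviations of same-numbered vehicle and DEX libraries correlated at -0.233, 0.118 and 0.0105 in HCC70 and at -0.634, -0.261 and 0.33 in MDA-MB-231. For unlike numbers the values ran from -0.24 to 0.214 in HCC70 and from -0.661 to 0.712 in MDA-MB-231. Deviations within a group of 3 libraries sum to 0, so these values cannot decide whether same-numbered libraries were paired. With the replicate block 3 members rose and 1 fell in HCC70, 5 rose and 10 fell in MDA-MB-231, and 7 and 2 differed in response. Over all 28141 tested genes the counts also fell with the block. They were 364 and 117 in HCC70 (719 and 395 without it) and 1187 and 1364 in MDA-MB-231 (1870 and 2240). In the difference they were 841 and 639 (1960 and 1431).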
